A study of Chlorocebus sabaeus with 3 samples.

Results

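Integrins, laminins, and the proteins that tie laminin to the rest of the basement membrane form the attachment of an epithelium to its stroma. An integrin is a receptor of 1 alpha and 1 beta chain in the cell membrane, and a laminin is a cross-shaped trimer of 1 alpha, 1 beta, and 1 gamma chain in the matrix outside. In the corneal epithelium the integrin made of ITGA6 and ITGB4 binds a laminin that contains LAMB3 and holds the basal cells in hemidesmosomes. Nidogens, perlecan, and agrin link the laminin network to collagen IV and to cell surface receptors. The same families also build the basement membranes of blood vessels, muscle, and nerve.

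The genes described here were chosen by name, 33 in all: 18 integrin chains, 10 laminin chains, and 5 linkers. A gene was read from probe sets that carry its symbol and no other. By this rule 30 genes were measured, 17 integrin chains, 9 laminin chains, and 4 linkers, of 19775 named genes on the array. All 4 probe sets of the integrin chain ITGB6 also carry a second symbol and were not used, and LAMA3 and DAG1 were not analysed here. The 30 genes had 86 probe sets, of which the brightest one, by the mean of its log2 values, stands for the gene.

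Limbus, cornea, and conjunctiva of the vervet monkey (Chlorocebus sabaeus) were each hybridized to 1 human expression array, so there are 3 arrays and no replicate. Per the study the animals were in the third or the fourth year of life and all tissues were taken from the same eye, and no treatment is named. The cornea was its trephined centre, the limbus was the rim around it, each with the upper part of the stroma, and the conjunctiva came with the Tenon tissue beneath it. Each sample thus held epithelium and stroma, so a higher share of a cell type and more RNA per cell cannot be told apart.

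Without replicates no difference has an error or a p-value, and every ratio below describes these arrays only. Values are RMA intensities on a linear scale. A gene was counted for a tissue when its value was at least 2-fold higher there than in each of the other tissues, the rule of the study. The median over all 54675 probe sets was 49.0 in limbus, 48.8 in cornea, and 50.7 in conjunctiva, so a value under 100 is close to the bulk of the array and its ratios are uncertain. The geometric mean of the hybridization controls, which are spiked in at a fixed amount, was 735 in limbus, 1128 in cornea, and 902 in conjunctiva. Dividing each array by it moves the median shift of all named genes by 0.46 on the log2 scale in the limbus and by -0.47 in cornea. The GAPDH control had a 3′ to 5′ ratio of 3.12, 4.58, and 3.83 in the same order, and the ACTB control had 11.8, 11.2, and 10.3. Because the probes are of human sequence, levels of different genes were not set against each other. The summed values of marker lists given below are the exception, and in them the genes with the brightest probe sets weigh most.

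Of the 30 genes, 4 (13.3%) were at least 2-fold higher in 1 tissue than in both others, compared with 4.05% of all named genes. The integrin chain ITGA6 and the laminin chain LAMB1 were counted for the cornea (background 1.89%), the integrin chain ITGA8 and the nidogen NID2 for the conjunctiva (background 1.68%), and none for the limbus (background 0.475%). All 4 counted genes reached 100 in some tissue. Among named genes that did, the shares were 3.05% for the cornea, 2.63% for the conjunctiva, and 0.573% for the limbus. A further 7 genes had their highest and lowest tissue at least 2-fold apart without meeting this rule, which brings the number to 11 (36.7%), against 13.9% of all named genes and 20.3% of named genes with a value of at least 100. The median ratio of the highest to the lowest tissue was 1.65 for these genes and 1.39 for all named genes. At the other end, 10 of the 30 genes varied by less than 1.5-fold over the eye surface. The median of 1.39 is itself under this limit, so most named genes also varied by less than 1.5-fold. A value of at least 100 in some tissue was reached by 23 genes, while ITGA1, ITGA3, ITGA4, ITGB3, LAMA1, LAMC3, and NID1 stayed under it everywhere.

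**Figure D1:**
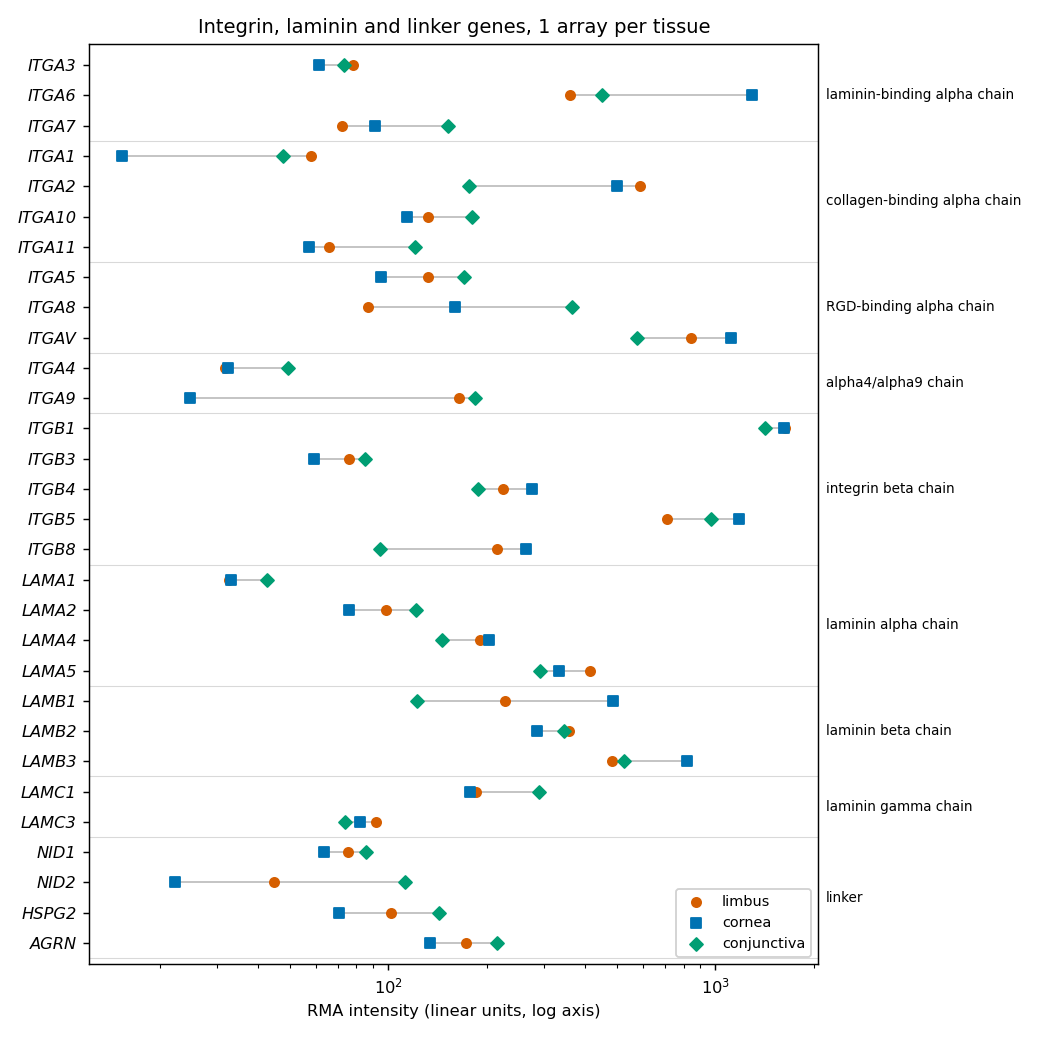
RMA intensity (log axis) of the 30 genes in limbus (circles), cornea (squares), and conjunctiva (diamonds), 1 array each, with a line from the lowest to the highest tissue. The widest spans are those of ITGA9, which is at 24.8 in cornea and 185 in conjunctiva, and NID2, at 22.3 and 113.

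The integrin alpha chains that bind laminin had no shared pattern. ITGA6, the alpha chain of the hemidesmosome, had a value of 360 in limbus, 1297 in cornea, and 451 in conjunctiva. The cornea stood apart, 3.60-fold over limbus and 2.87-fold over conjunctiva, and the limbus and the conjunctiva differed by 1.25-fold. On the second ITGA6 probe set, at 134, 228, and 201 in the same order, the cornea was again highest, though only 1.70-fold over limbus and 1.13-fold over conjunctiva. ITGA6 was the only one of the 4 counted genes that met the 2-fold rule under every alternative summary of probe sets, pseudocount, and scaling tried. None of these settings read the second ITGA6 probe set alone, and on it the rule was not met. On the brightest probe set ITGA6 did not reach 3-fold over the conjunctiva.

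ITGA7, the laminin receptor of muscle cells, was highest in the conjunctiva, with 72.4 in limbus, 90.9 in cornea, and 152 in conjunctiva. The conjunctiva was 2.10-fold over limbus and 1.67-fold over cornea. The other ITGA7 probe set was at 51.8, 39.8, and 43.4, near the array median in all tissues. ITGA3, which pairs with ITGB1 as an epithelial laminin receptor, was at 78.0, 61.5, and 73.4, a span of 1.27-fold on low values.

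The alpha chains that bind collagen were divided by tissue. ITGA2, an epithelial and platelet collagen receptor, had a value of 589.5 in limbus, 501 in cornea, and 176 in conjunctiva. Limbus and cornea lay together, with the limbus 3.34-fold and the cornea 2.84-fold over conjunctiva. The second ITGA2 probe set, at 131, 150, and 89.7, placed the conjunctiva lowest as well, with 1.46-fold and 1.67-fold ratios.

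ITGA1, the collagen and laminin receptor of vessel walls and stromal cells, had 58.1 in limbus, 15.4 in cornea, and 47.6 in conjunctiva. Here the cornea was the low tissue, 3.78-fold under the limbus, but all values are near or under the array median. With a pseudocount of 32 that ratio was 1.90, and the other ITGA1 probe sets were between 10.3 and 35.3 in all tissues. ITGA1 and ITGA2 are next to each other among the protein-coding genes of the vervet annotation (RefSeq, assembly mChlSab1.0.hap1).

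ITGA11, a collagen receptor of fibroblasts, was at 65.8 in limbus, 57.4 in cornea, and 120 in conjunctiva, and ITGA10, known from cartilage, at 132, 115, and 180.5. The conjunctiva was highest for both, 2.10-fold over the cornea for ITGA11 and 1.58-fold for ITGA10. The other ITGA11 probe sets were flat, at 73.9, 72.4, and 77.1 and at 18.0, 18.8, and 18.9.

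The alpha chains that recognize the RGD motif of fibronectin, vitronectin, and similar ligands also went separate ways. ITGA8, the nephronectin receptor of mesenchymal and smooth muscle cells, had 86.5 in limbus, 160 in cornea, and 366 in conjunctiva. The conjunctiva was 4.23-fold over limbus and 2.28-fold over cornea, and the limbus, not the cornea, was the lowest. A second ITGA8 probe set gave the same order with 61.5, 186, and 390, a 6.33-fold ratio of conjunctiva to limbus. The remaining pair of ITGA8 probe sets was flat, with no value above 72.1.

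ITGAV, the alpha chain shared by the vitronectin receptors, had 844 in limbus, 1115 in cornea, and 575 in conjunctiva. The cornea was 1.94-fold over conjunctiva, just short of the 2-fold rule, and 1.32-fold over limbus. After division by the hybridization controls the limbus was the highest tissue for ITGAV. ITGA5, the fibronectin receptor chain, was at 132.5, 95.1, and 171, lowest in the cornea by 1.80-fold against the conjunctiva.

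ITGA9, a receptor for tenascin C and other ligands that is known from smooth muscle, lymphatic endothelium, and basal epithelium, had the widest span of all 30 genes. Its value was 165 in limbus, 24.8 in cornea, and 185 in conjunctiva. The limbus was 6.64-fold and the conjunctiva 7.45-fold over cornea, while limbus and conjunctiva differed by 1.12-fold and exchanged ranks after division by the hybridization controls. The other ITGA9 probe sets stayed between 15.1 and 37.7 in every tissue, so the pattern rests on 1 probe set. With a pseudocount of 32 the ratio of conjunctiva to cornea was 3.82, and by the median over the probe sets it was 1.29. ITGA4, a leukocyte receptor for VCAM1 and fibronectin of the same subfamily, was at 31.8, 32.3, and 49.5, all low.

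The beta chains varied less. ITGB1, the partner of most alpha chains above, had 1635 in limbus, 1626 in cornea, and 1416 in conjunctiva, a span of 1.16-fold, and the order of limbus and cornea turned when the arrays were scaled to a common median. On another ITGB1 probe set, at 340, 212, and 360, the cornea was the lowest tissue. ITGB4, the beta chain of the hemidesmosome, was at 224, 275, and 188, so its cornea value was 1.23-fold over limbus and 1.46-fold over conjunctiva. This is a smaller step than the one of its partner ITGA6, and after division by the hybridization controls the limbus was the highest tissue for ITGB4 but not for ITGA6.

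Of the beta chains that pair with ITGAV, ITGB8, known for activating latent TGF-beta, had 215 in limbus, 263 in cornea, and 94.4 in conjunctiva. The conjunctiva was the low tissue, with the cornea 2.79-fold and the limbus 2.27-fold above it. The other ITGB8 probe sets did not exceed 40.0 and were flat, and by the median over all of them the ratio of cornea to conjunctiva was 0.981. ITGB5, a vitronectin receptor chain, was at 710, 1182, and 967, with the cornea 1.66-fold over limbus. Another ITGB5 probe set, at 233, 205, and 222, varied little and was highest in the limbus and lowest in the cornea. ITGB3, known from platelets and endothelium, was at 75.8, 59.4, and 85.1.

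Among the laminin chains LAMB1 had the largest difference. LAMB1, the beta chain of the widespread laminins that contain LAMC1, had a value of 227 in limbus, 486 in cornea, and 123 in conjunctiva. The tissues were spread in steps, with the cornea 2.14-fold over limbus and 3.96-fold over conjunctiva, and the limbus 1.85-fold over conjunctiva. The second LAMB1 probe set kept this order, at 192, 264, and 118, with the cornea 1.37-fold over limbus. After division by the hybridization controls the ratio of cornea to limbus was 1.39. LAMB4, the next protein-coding gene to LAMB1 in the vervet annotation and no member of the set, was at 79.0, 140, and 18.5, so it had the same order with a 7.55-fold ratio of cornea to conjunctiva. That ratio rests on 1 of 3 LAMB4 probe sets. The others were low, at 21.4, 24.4, and 14.6 and at 36.1, 48.4, and 35.5, with the same order and smaller steps.

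LAMB3, the beta chain of the hemidesmosome laminin, was at 482 in limbus, 818 in cornea, and 525 in conjunctiva. Like ITGA6 and ITGB4 it was highest in the cornea, 1.70-fold over limbus and 1.56-fold over conjunctiva. LAMB2, known from basement membranes of muscle, kidney, and nerve, was level at 356, 285, and 346, and its highest tissue changed from the limbus to the conjunctiva after quantile normalization.

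The laminin alpha chains, which decide receptor binding, differed little. LAMA5, the alpha chain of adult epithelial and vascular basement membranes, was at 413 in limbus, 334 in cornea, and 292 in conjunctiva. LAMA4, a chain of vessel and muscle laminins, was at 190, 204, and 146, and LAMA2, of muscle and nerve, at 98.2, 75.7, and 121. The largest span was 1.60-fold, for LAMA2, with the conjunctiva highest on its 4 probe sets. LAMA1, an embryonic chain, was at 32.6, 33.2, and 42.5, under the array median in all tissues.

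LAMC1, the gamma chain of most laminins, had 185 in limbus, 178 in cornea, and 290 in conjunctiva. The conjunctiva was 1.57-fold over limbus on this probe set, but on the other, at 85.9, 145, and 99.7, the cornea was 1.69-fold over limbus, so LAMC1 has no settled order. LAMC3 was at 91.8, 81.8, and 73.7.

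On their brightest probe sets all 4 linkers were highest in the conjunctiva and lowest in the cornea, against 36.7% and 33.2% of all named genes; after division by the hybridization controls NID1 was highest in the limbus. NID2, a nidogen that bridges laminin and collagen IV, had 44.8 in limbus, 22.3 in cornea, and 113 in conjunctiva. The conjunctiva was 2.52-fold over limbus and 5.06-fold over cornea, and the limbus was 2.01-fold over cornea. NID2 has a single probe set, and with a pseudocount of 32 its ratio of conjunctiva to limbus was 1.89.

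HSPG2, which encodes perlecan, was at 102 in limbus, 70.6 in cornea, and 143 in conjunctiva, with the conjunctiva 2.02-fold over cornea. AGRN, which encodes agrin, was at 173, 134, and 216, and the conjunctiva was the highest tissue on all 4 of its probe sets. NID1 was at 75.2, 63.6, and 85.4, but its other probe sets, at 49.1, 28.8, and 41.0 and at 45.8, 44.6, and 37.3, were highest in the limbus, and all its values are low. The second HSPG2 probe set was nearly flat, at 52.5, 50.7, and 45.3.

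Integrin and laminin chains were then set side by side by the shift of each gene, that is, its log2 value in a tissue less the average log2 value of the other two. In the conjunctiva the median shift was 0.34 for the 17 integrin chains, -0.23 for the 9 laminin chains, and 0.63 for the 4 linkers, against 0.01 for all named genes. These signs held under the 3 other scalings, but with each gene taken as the median of its probe sets the laminin value was 0.12. The integrin and laminin values are the shifts of ITGB3 and LAMC3, which stayed under 100 in every tissue. Among laminin chains with a value of at least 100 the median in the conjunctiva was -0.26. In the cornea the medians were -0.21, -0.06, and -0.65, against 0.02 for all named genes. Among integrin chains with a value of at least 100 the median was 0.10 in cornea and 0.08 in conjunctiva, and over probe sets of at least 100 it was 0.053 and 0.38. The sign of the integrin median in the cornea thus turned in both settings, and its size in the conjunctiva differed between them. In the limbus all medians were near 0, at 0.06, 0.04, and 0.02, against -0.04 for all named genes, and each moved with all genes to between 0.48 and 0.51 after division by the hybridization controls.

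**Figure D2:**
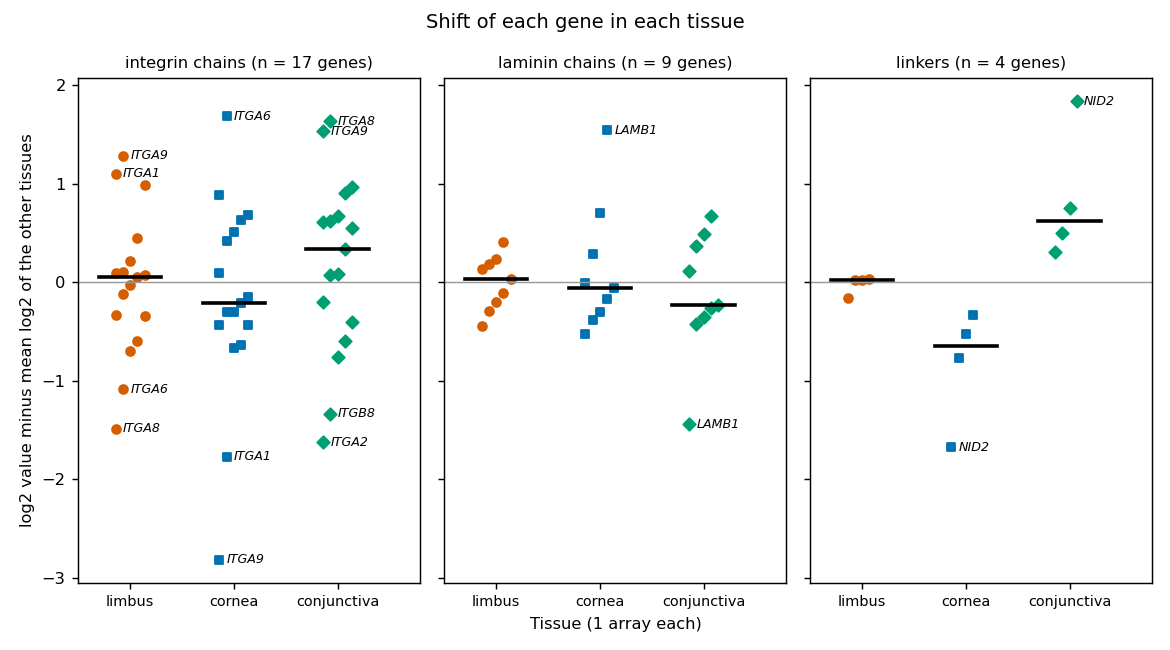
Shift of each gene (log2 value less the average log2 value of the other two tissues) in each tissue, for 17 integrin chains, 9 laminin chains, and 4 linkers, from 1 array per tissue; the bar is the median, and genes with a shift of at least 1 in size are named. Integrin chains extend from -2.81 (ITGA9 in cornea) to 1.69 (ITGA6 in cornea), whereas all laminin chains except LAMB1 lie between -0.53 and 0.70.

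Conjunctiva and cornea were at least 2-fold apart in 10 of the 30 genes. The conjunctiva was the higher in 6 (background 5.68%): ITGA1, ITGA8, ITGA9, ITGA11, NID2, and HSPG2. The cornea was the higher in 4 (background 5.31%): ITGA2, ITGA6, ITGB8, and LAMB1. Limbus and cornea were apart in 5, with ITGA1, ITGA9, and NID2 higher in the limbus (background 4.06%) and ITGA6 and LAMB1 higher in the cornea (background 2.51%). Limbus and conjunctiva were apart in 5 as well, with ITGA2 and ITGB8 higher in the limbus (background 2.62%) and ITGA7, ITGA8, and NID2 higher in the conjunctiva (background 2.31%). Among named genes with a value of at least 100 the shares were higher. They were 8.24% for conjunctiva over cornea, 8.52% for cornea over conjunctiva, and 5.97% for limbus over cornea. For cornea over limbus the share was 3.84%, for limbus over conjunctiva 3.94%, and for conjunctiva over limbus 3.3%. These comparisons share arrays and are not independent.

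The counts followed the threshold. With 1.5-fold in place of 2-fold, 3 genes were counted for the cornea (background 6.29%), with LAMB3 as the addition, and 6 for the conjunctiva (background 5.31%), with ITGA4, ITGA7, ITGA11, and LAMC1 as additions, but still 0 for the limbus (background 2.19%). With 3-fold, 0 genes were counted for the limbus (background 0.106%), 0 for the cornea (background 0.491%), and 0 for the conjunctiva (background 0.501%). Between pairs of tissues at 1.5-fold, conjunctiva exceeded cornea in 13 genes (background 12.8%) and cornea exceeded conjunctiva in 6 (background 13.2%). Limbus exceeded cornea in 3 (background 9.82%) and conjunctiva in 3 (background 8.38%), and was exceeded by cornea in 5 (background 10.4%) and by conjunctiva in 6 (background 9.11%). At 3-fold the pairs left ITGA1, ITGA8, ITGA9, ITGA2, ITGA6, LAMB1, and NID2. Of these, ITGA1 and ITGA9 were higher in limbus than in cornea (background 1.74%), and ITGA2 was higher in limbus than in conjunctiva (background 0.693%). ITGA6 was higher in cornea than in limbus (background 0.602%), LAMB1 in cornea than in conjunctiva (background 1.82%), ITGA8 in conjunctiva than in limbus (background 0.566%), and ITGA1, ITGA9, and NID2 in conjunctiva than in cornea (background 2.86%).

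With no threshold, the conjunctiva was the highest tissue for 15 of the 30 genes (background 36.7%), the cornea for 8 (background 38.4%), and the limbus for 7 (background 24.9%). The cornea was the lowest for 14 (background 33.2%), the conjunctiva for 9 (background 33.9%), and the limbus for 7 (background 33%). After division by the hybridization controls the limbus was highest for 14 genes and the cornea lowest for 20, so these counts depend on the scale of the arrays. The division moved the median of all named genes by 0.46 in limbus and -0.47 in cornea, and their shares after it were not counted.

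The only internal check of a value was a second probe set of the same gene. Beyond the probe sets used, 10 from 8 genes reached 100 in some tissue, and 5 of them (50.0%) had the same highest tissue as the probe set used. These 5 belong to ITGA6, ITGA8, LAMB1, and AGRN. The others belong to ITGA2, ITGB1, ITGB5, and LAMC1. With no limit on the value, 23 of 56 (41.1%) had the same highest tissue.

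**Figure D3:**
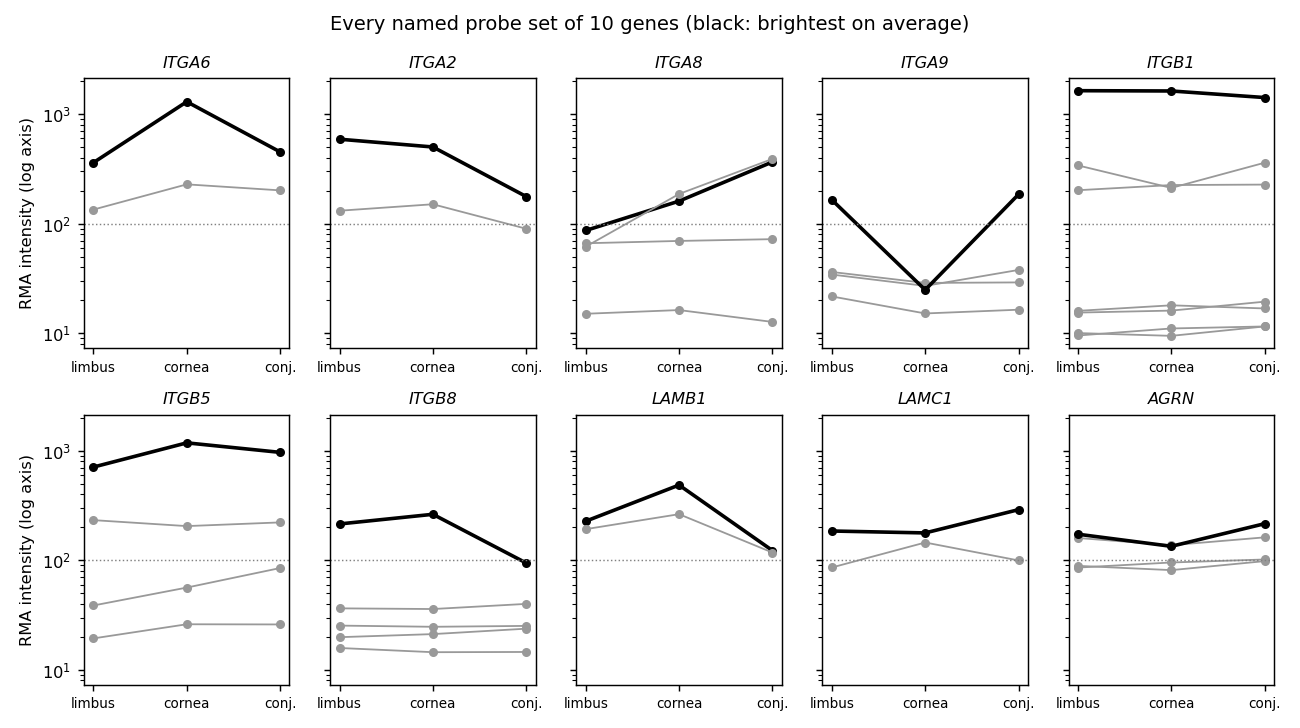
RMA intensity (log axis) in limbus, cornea, and conjunctiva for every named probe set of 10 genes, the 8 with a second probe set of at least 100 and ITGA9 and ITGB8; black lines are the probe sets used and the dotted line is at 100. The peak of ITGA6 and LAMB1 in cornea and the order of ITGA8 recur on a second probe set, and the dip of ITGA9 in cornea does not recur at its size.

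Other genes of the same adhesion system were read from a list of 67, of which 60 were measured. TNC was counted for the limbus, and COL4A4, SPARC, and TGFBI were for the cornea. Counted for the conjunctiva were 8 genes, COL4A2, COL15A1, FBLN2, TNS1, FN1, EDIL3, COL1A1, and COL3A1, while 48 of the 60 were counted for no tissue. Of these 8, COL15A1 did not reach 100 in any tissue, at 25.0 in limbus, 19.6 in cornea, and 57.4 in conjunctiva. The background share of all named genes was 0.475% for the limbus, 1.89% for the cornea, and 1.68% for the conjunctiva. Between conjunctiva and cornea, 19 of the 60 were at least 2-fold higher in the conjunctiva (background 5.68%) and 6 in the cornea (background 5.31%). TNC, a ligand of ITGA9, was at 214 in limbus, 27.8 in cornea, and 39.6 in conjunctiva. The limbus and the conjunctiva thus had similar values of ITGA9 and a 5.40-fold difference in TNC.

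Of 6 hemidesmosome and anchoring fibril genes measured, none was counted for a tissue on its brightest probe set, and DST, PLEC, and CD151 varied by less than 1.5-fold. PLEC, which encodes plectin, was at 652 in limbus, 655 in cornea, and 496 in conjunctiva, and the tetraspanin CD151, a partner of laminin-binding integrins, at 221, 243, and 311. COL7A1, the anchoring fibril collagen, was at 343, 336, and 214, but on its other probe set it was at 398, 150.5, and 105, where the limbus was at least 2-fold over both other tissues. Together with ITGA6, ITGB4, and LAMB3 these are 9 genes, and 5 of them (ITGA6, ITGB4, LAMB3, PLEC, and KRT5) were highest in the cornea, against 38.4% of all named genes. After division by the hybridization controls 2 were, and the share of all named genes after it was not counted. The basal keratin KRT5 was at 6129, 7264, and 3293, while its partner KRT14 was at 4580, 53.1, and 5521.

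Dystonin (DST), another hemidesmosome component, showed how the probe set matters. Its brightest probe set was at 1742 in limbus, 1915 in cornea, and 2212 in conjunctiva. Another was at 777, 746, and 254, with the conjunctiva lowest. The gene has several isoforms, and which of them each probe set reads was not tested.

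Collagen IV, the network that nidogens and perlecan bind, was divided by chain. COL4A1 was at 351 in limbus, 43.0 in cornea, and 553 in conjunctiva, and COL4A2 at 170, 56.9, and 371. These are the chains of most basement membranes, vessels included, and for both the cornea was the lowest tissue, as it was for the 4 linkers. The second COL4A1 probe set kept the order with much smaller steps, at 92.8, 72.2, and 121. COL4A3 was at 65.0, 118, and 81.0, COL4A4 at 84.1, 247, and 72.7, and COL4A5 at 98.6, 152, and 83.4. For these 3 chains, which can form a trimer of their own, the cornea was the highest tissue, with COL4A4 2.93-fold over limbus and 3.40-fold over conjunctiva. Other COL4A3 probe sets stayed under 100 and were divided, with the cornea highest at 54.7, 83.6, and 31.9 and the limbus at 71.3, 41.8, and 44.1. COL4A1 with COL4A2 and COL4A3 with COL4A4 are neighbours in the vervet annotation.

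Of 13 other basement membrane genes, 7 had a value in the conjunctiva at least 2-fold that in the cornea (background 5.68%). The fibulin FBLN2 was at 314 in limbus, 125 in cornea, and 720 in conjunctiva. The netrin NTN4, which binds laminin gamma chains, was at 419, 156, and 662, and the peroxidasin PXDN, which crosslinks collagen IV, at 271, 74.5, and 312. FRAS1, an epithelial basement membrane protein, was at 161, 16.5, and 115, so limbus and conjunctiva were 9.74-fold and 6.95-fold over cornea. This was read from 1 of 6 FRAS1 probe sets, and the others did not exceed 36.9. SPARC, which binds collagen, was highest in the cornea, at 1441, 4006, and 1847.

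**Figure D4:**
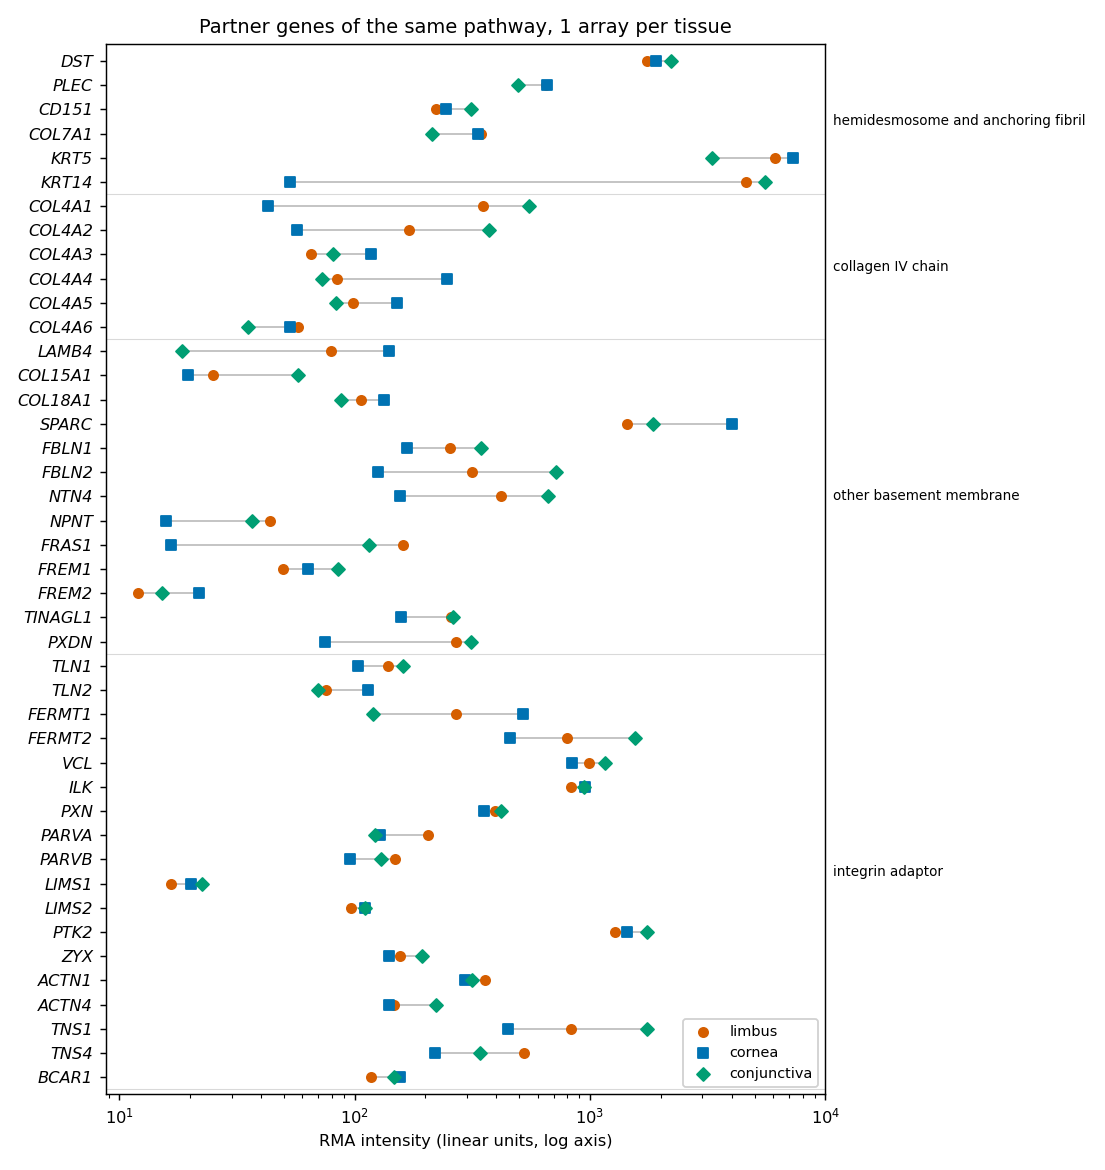
RMA intensity (log axis) of partner genes in limbus (circles), cornea (squares), and conjunctiva (diamonds), 1 array each, by group. The cornea lies lowest for COL4A1 and COL4A2 and highest for COL4A3 and COL4A4, and among the integrin adaptors FERMT1 and FERMT2 lie in opposite orders.

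Of 18 integrin adaptors, which couple the beta chain tails to actin, only the tensin TNS1 was counted, for the conjunctiva (background 1.68%). TNS1 was at 827 in limbus, 446 in cornea, and 1744 in conjunctiva. Of its 3 probe sets that reached 100, 2 were highest in the conjunctiva and the other, at 218, 161, and 162, in the limbus. TNS4 was at 523, 220, and 341 on its brightest probe set, with the limbus 2.38-fold over cornea. The kindlins were opposed. FERMT1, the epithelial kindlin, was at 270, 519, and 119, and FERMT2, the kindlin of mesenchymal cells, at 801, 459, and 1554. FERMT1 kept its order on the 3 probe sets that reached 100. Of 7 measured dystroglycan partners and glycosylation genes none was counted, and the sarcoglycan SGCE was 4.39-fold higher in the conjunctiva than in the cornea.

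Of 11 further integrin ligands measured, 6 were counted for a tissue (background 4.05%). Fibronectin (FN1), the main ligand of ITGA5, was at 2027 in limbus, 1535 in cornea, and 4652 in conjunctiva, and the collagens COL1A1 and COL3A1 at 2371, 1542, and 5589 and at 519, 46.3, and 2105. COL1A1 was highest in the conjunctiva on all 5 of its probe sets, though nearly flat on some, as at 260, 262, and 278. EDIL3, which carries an RGD motif, was at 48.7, 19.3, and 103. TGFBI, a corneal matrix protein that binds integrins, was highest in the cornea at 21896, against 10399 in limbus and 3549 in conjunctiva. The order of FN1 was that of ITGA5, with the conjunctiva highest and the cornea lowest.

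Markers of the cells that could hold these transcripts also differed between the tissues. All 7 endothelial genes were lowest in the cornea, with a summed value of 1471 in limbus, 489 in cornea, and 2256 in conjunctiva. PECAM1 was at 462, 45.9, and 675, VWF at 407, 106, and 939.5, and CDH5 at 152, 75.2, and 184. Of 10 members listed as chains, receptors, or linkers of vessel basement membranes, 7 were lowest in the cornea too (background 33.2%). The exceptions were LAMA4 and LAMB1, with the cornea highest, and LAMA5, with the conjunctiva lowest. LAMC1, among the 7, had no settled order on its probe sets. When only probe sets that reached 100 were used, 4 were lowest in the cornea, but ITGA1 and NID1 have no such probe set and dropped out. The part of vessel cells in these values was not tested.

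The 7 smooth muscle and pericyte genes summed to 1511 in limbus, 646 in cornea, and 3657 in conjunctiva. ACTA2 was at 431, 76.4, and 1847, and MYH11 at 160, 142, and 701. Of these 7 genes, 5 were highest in the conjunctiva, ACTA2 and MYH11 among them, as were ITGA7, ITGA8, and ITGA11. RGS5 and NOTCH3 were highest in the limbus instead, and NOTCH3 was lowest in the conjunctiva. The cornea exceeded the limbus in ITGA7 and ITGA8, as it did in DES (108, 111, and 199) and CNN1 of this list. The limbus exceeded the cornea in ITGA11, as in the other listed genes, ACTA2, MYH11, RGS5, PDGFRB, and NOTCH3. Leukocyte genes summed to 719, 486, and 1319 over 7 measured, with PTPRC at 81.9, 18.8, and 352. Of the 7, CD3D was also counted for the conjunctiva, at 154, 111, and 378. CNN1, another smooth muscle gene counted for it, was at 65.2, 71.3, and 234. The part of these cells was not tested.

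Corneal stroma genes ran the other way. The 4 genes summed to 8136 in limbus, 17728 in cornea, and 7873 in conjunctiva, with KERA at 85.3, 312, and 18.5 and PTGDS at 2887, 7945, and 1394. KERA and LAMB1 shared the order cornea, limbus, conjunctiva. Of 4 basal epithelial genes measured, KRT14, KRT15, and DSG3 (248, 45.0, and 59.1) were lowest in the cornea and KRT5 was lowest in the conjunctiva, with a summed value of 14116, 7544, and 12393. KRT5 was highest in the cornea, as were ITGA6, ITGB4, and LAMB3. The part of epithelial and stromal cells was not tested. The 6 skeletal muscle genes summed to 249, 266, and 347, with ACTA1 and MYH1 no higher than 18.9 in any tissue. The 4 Schwann cell and nerve genes measured summed to 365, 437, and 434. Melanocyte genes, 4 measured, summed to 1476, 351, and 651, and MLANA (303, 32.9, and 113) and TYRP1 (290.5, 11.7, and 21.6) were counted for the limbus.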

How the data were processed

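RNA from limbus, cornea, and conjunctiva was amplified in 2 rounds and hybridized to human U133 Plus arrays, 1 per tissue. The authors normalized each array by RMA (justRMA; the version is not given in the sources used here) against a constant reference pool of arrays and not with each other, so the 3 arrays may still differ in scale. The deposited table gives linear intensities for 54675 probe sets, with 0 missing values and 0 columns of other samples, and were used as deposited.

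Everything else was computed with Python 3.11.15, numpy 2.4.6, and pandas 2.3.3, and plots were drawn with matplotlib 3.10.9. Symbols come from an older platform annotation, in which 41097 probe sets carry exactly 1 symbol; each of the 19775 genes was read from its brightest probe set by mean log2 value. The genes and gene lists were chosen with earlier results of these data known. All members are named, and of the lists every gene counted on a value of at least 100, with defining markers; other list genes were named after their values were seen. With 1 array per tissue no test was possible, and precision is limited by the number of arrays. Counting and shifts were tested on simulated data. Alternatives varied the probe set, a pseudocount of 32, a minimum of 100, the scaling (quantile, common median, and 18 hybridization control probe sets), and the threshold (1.5-fold and 3-fold).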

Additional observations from a re-analysis of the deposited data

How the results depend on the processing

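A value was taken as unchanged when it moved by at most 1.5-fold, since there is no replicate spread. On the log2 scale this limit is wider than most of the medians themselves, so no median could easily pass it and none was labelled as moved. The integrin median in the conjunctiva, for example, fell from 0.34 to 0.08 among genes of at least 100 and was taken as unchanged. The tally below thus says little about the medians. Of 179 recomputed counts and medians, 145 were unchanged in this sense, 31 moved, and 3 medians of at least 0.1 in size changed sign; of 172 recomputed ratios of single genes, 159 were unchanged. Medians near 0 in the limbus changed sign as well, to -0.02 for the integrin chains when low probe sets or genes were left out and to -0.02 for the linkers under quantile normalization. Scaling to a common median and reading the probe set with the highest value moved no count, median, or ratio past the limit. No member was counted for the limbus under any setting, though at 3-fold this was fixed in advance by the result at 2-fold. Counts moved as follows, with the deposited count first. At 1.5-fold, 6 genes were counted for the conjunctiva (2), and the pairs gave 5 for cornea over limbus (2), 6 for conjunctiva over limbus (3), and 13 for conjunctiva over cornea (6). At 3-fold, 0 were counted for the cornea and 0 for the conjunctiva, and the pairs gave 1 each for cornea over conjunctiva (4), limbus over conjunctiva (2), conjunctiva over limbus (3), and cornea over limbus (2), and 3 for conjunctiva over cornea (6). A pseudocount of 32 left ITGA6 alone in the cornea (1) and ITGA8 alone in the conjunctiva (1), with 1 for limbus over cornea (3), limbus over conjunctiva, cornea over limbus, and conjunctiva over limbus, and 3 for conjunctiva over cornea. By the median over all probe sets, ITGA6 (1) and NID2 (1) were counted, the pairs gave 1 for cornea over limbus, 1 for limbus over conjunctiva, and 3 for conjunctiva over cornea, the laminin median in the conjunctiva was 0.12 in place of -0.23, and the ratio of cornea to conjunctiva of ITGB8 was 0.981 in place of 2.79. Over probe sets of at least 100, 1 gene (ITGA6) was counted for the cornea, 4 of the vessel set were lowest in the cornea in place of 7, and the integrin median in the cornea was 0.053 in place of -0.21; this setting loses genes without such a probe set. With genes of at least 100 that median was 0.10. Division by the hybridization controls gave 1 for the cornea (ITGA6), 1 for cornea over limbus, 5 for limbus over cornea, 11 for conjunctiva over cornea, and 2 of 9 hemidesmosome genes highest in the cornea; it lowers every cornea value, and it changed the highest tissue of 8 of the 30 genes. Quantile normalization gave 3 of these 9, and changed 1 highest tissue. No paired analysis was possible because each tissue has 1 array and no result comes from a test.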
